A study of Thermothelomyces thermophilus ATCC 42464 with 3 samples.

Results

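The genes described here are the 94 of 9292 loci whose mRNA was at least 4-fold higher in 1 library labelled as a Mycth_90344 deletion mutant than in each of 2 wild type (WT) libraries of Thermothelomyces thermophilus ATCC 42464, long known as Myceliophthora thermophila. They are called members below. A locus was taken as a member when its level in the library labelled deletion was 5 CPM or more (CPM is counts per 1000000 counts of the library) and when that level plus 0.1 CPM was at least 4 times the WT level plus 0.1 CPM, for both WT libraries. The rule set aside 16 named loci, of which 1, MYCTH_90344 itself, met its values. With that locus, 95 of 9292 genes, or 1.02%, met the rule. The rule applied between the WT libraries took 0 genes, with replicate 1 over replicate 2 and with replicate 2 over replicate 1. The members were thus chosen by the CPM of all 3 libraries. Because these levels chose them, their differences from WT are given as a description, without a test.

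All 3 libraries came from mycelium of the ATCC 42464 strain. The genotypes were the labelled Mycth_90344 deletion mutant (1 library) and WT (2 libraries). Both genotypes were grown at 45 °C for 16 h in Vogel's salts with 2% glucose, washed, and then held for 4 h on 2% Avicel, a microcrystalline cellulose. The labels did not say how many mutant clones or separate cultures were used, so the spread of the WT pair may be technical, and the library labelled deletion had no replicate.

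Filamentous fungi that live on plant matter adjust a large part of their mRNA to the carbon source, and on cellulose they make secreted enzymes that cut the polymer into sugars. Their transcription factors act on many target genes, some as activators and some as repressors. In fungal genomes, genes that serve 1 pathway are in many cases neighbours and transcribed together, as in clusters for secondary metabolites, for nutrient use and for transport. The gene table used here (assembly ASM22609v1) gave a symbol to 6 loci and to 0 of the members, so the members are named by locus tag and no function is given for them. All 94 were protein-coding.

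The libraries held 20166880 to 21827636 counts, with the library labelled deletion at 20774092. A level of 3 counts, taken as the floor, was 0.137 to 0.149 CPM. MYCTH_90344 had 6978 counts in the library labelled deletion, against 217 and 236 counts in WT, which goes against a deletion of the counted sequence. The library is therefore called by its label. Of all genes with a count, the median log2 ratio between that library and the WT mean was 0.01, so the 4-fold minimum was set against a centre near no difference. In these bulk samples, more mRNA per cell and more cells with the mRNA cannot be told apart.

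Together the members took 9.35% of all counts in the library labelled deletion (95% Wilson interval 9.34 to 9.36%, counting error only), against 0.912% and 0.922% in the WT libraries. The summed level was 10.2-fold that of WT. A small number of loci made up most of it. The 12 most abundant members held 76.1% of the members' counts in the library labelled deletion, and 67.5% and 67.8% in the WT libraries. The other 82 members took 2.24% of all counts in the library labelled deletion and 0.297% ± 0.000574 in WT (SD, n = 2).

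**Figure D1:**
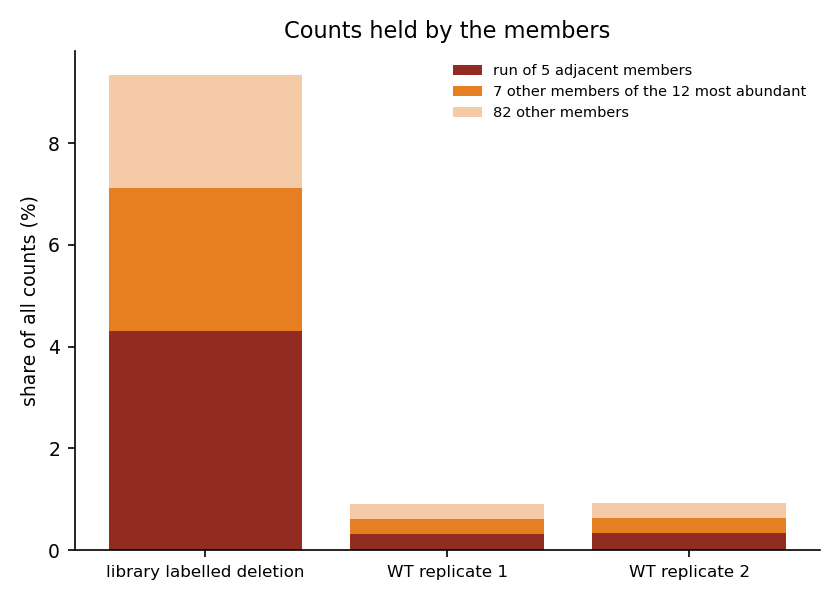
Share of all counts (%, y axis) held by the 94 members in each library (x axis), stacked as the run of 5 adjacent members, the 7 other loci of the 12 most abundant members, and the 82 other members. The bar of the library labelled deletion reaches 9.35%, against 0.912% and 0.922% in WT replicates 1 and 2; the run of 5 makes up 4.30% of all counts in the library labelled deletion.

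The members were counted in WT too, a few of them near the floor. In WT, 5 members had a mean under 1 CPM, 35 were at 1 to 10 CPM, 35 at 10 to 100 CPM and 19 at 100 CPM or more. No member had 0 counts in a WT library, but 4 members had fewer than 10 counts in a WT library, 1 of them at the floor. Their levels in the library labelled deletion ran from 5.58 to 11379 CPM with a median of 143 CPM, and their WT means from 0.191 to 1254 CPM with a median of 15.9 CPM. The median over all genes was 26.6 CPM in the library labelled deletion and 25.3 CPM in WT.

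The ratio to the WT mean, with 0.1 CPM added to each side, had a median of 6.98 and a range of 4.01 to 46.8. Of the 94 members, 27 had a ratio under 5, 27 a ratio of 5 to 8, 27 a ratio of 8 to 16, 8 a ratio of 16 to 32 and 5 a ratio of 32 or more. The 5 members under 1 CPM in WT had the highest median ratio, 25.99 (range 6.53 to 43.4), on few WT counts. The 35 members at 1 to 10 CPM in WT had a median ratio of 6.09, the 35 at 10 to 100 CPM one of 9.22, and the 19 at 100 CPM or more one of 6.03. The highest ratio in that last class was 30.3.

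**Figure D2:**
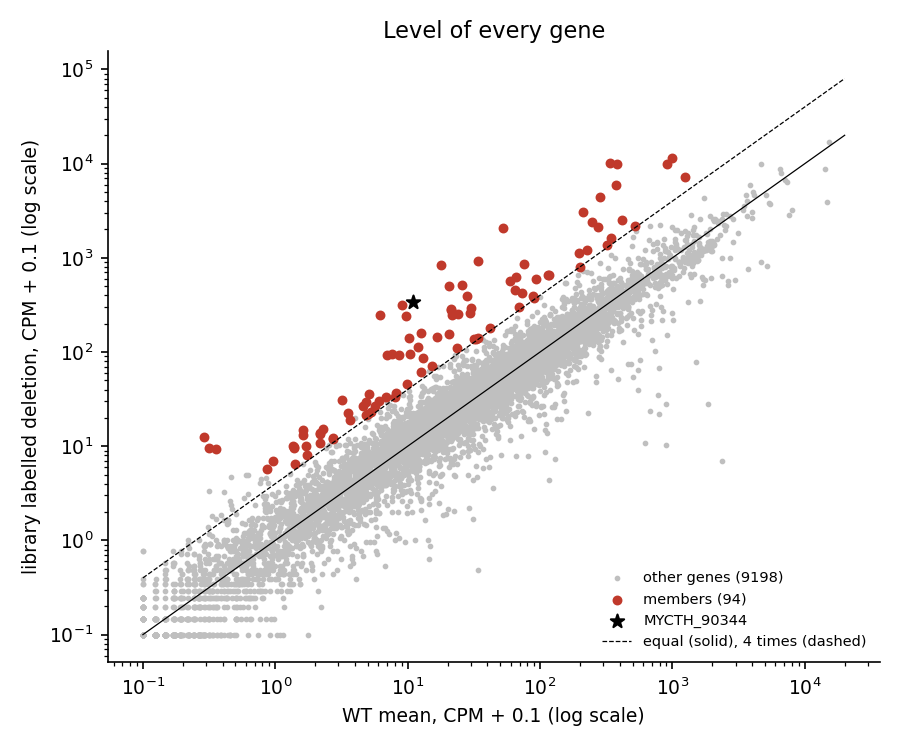
Level of every gene in the library labelled deletion (y axis, CPM + 0.1, log scale) against the WT mean (x axis, CPM + 0.1, log scale), with the 94 members in red, MYCTH_90344 as a star and the other genes in grey. The members have WT means of 0.191 to 1254 CPM, below those of the most abundant WT genes, and lie above the dashed line of a 4-fold ratio, which the rule required.

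Members were among the most abundant mRNAs of the library labelled deletion and not among those of WT, a shift that the 4-fold minimum favoured. Among the 20 genes of highest CPM, 7 were members in the library labelled deletion, against 0 in either WT library. Among the 100 genes of highest CPM, 15 were members in the library labelled deletion, against 0 in either WT library. Ranked per length, by the deposited FPKM (counts per kilobase of counted gene length and per 1000000 of the authors' library total), the numbers were the same, 7 of 20 and 15 of 100 in the library labelled deletion and 0 in WT.

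MYCTH_2314727 was the most abundant member by CPM. It had 11379 CPM in the library labelled deletion, against 995 and 978 CPM in the WT libraries, a ratio of 11.5. It ranked 2 by CPM in the library labelled deletion, and 184 and 187 in WT. This single locus took 1.14% of all counts in the library labelled deletion and 0.0987% in WT. Its counted length was 2204 bases, equal to its whole span in the table, so no intron was left out of the count. Per length it ranked 11 in the library labelled deletion, with 6159 FPKM, below the members MYCTH_82772 and MYCTH_69746.

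The members that follow MYCTH_2314727 by CPM, MYCTH_82772, MYCTH_108317, MYCTH_69746, MYCTH_82782 and MYCTH_11658, are neighbours in the gene order and are described below. After them came MYCTH_2301985, with 4438 CPM in the library labelled deletion, against 289 and 282 CPM in WT. MYCTH_2315946 had 3037 CPM in the library labelled deletion, against 217 and 204 CPM in WT. Both moved by about the same factor, with ratios of 15.5 and 14.4.

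The remaining loci of the 12 most abundant had smaller ratios. MYCTH_2310989 had 2417 CPM in the library labelled deletion, against 250.1 and 245 CPM in WT, a ratio of 9.76. MYCTH_2084531 had 2149 CPM in the library labelled deletion, against 279 and 273 CPM in WT, a ratio of 7.80. MYCTH_2299636 had 2522 CPM in the library labelled deletion, against 424 and 412 CPM in WT, a ratio of 6.03. MYCTH_66349 passed the rule narrowly, with 2192 CPM in the library labelled deletion, against 505 and 546 CPM in WT. In each of these 12 loci the WT libraries lay close together. Their distance from the library labelled deletion was required by the rule. 5 further members reached 1000 CPM in the library labelled deletion, MYCTH_69953, MYCTH_2090891, MYCTH_2301567, MYCTH_2081249 and MYCTH_2314855.

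The largest ratios belonged mostly to other loci, and 2 genes were in both lists of 12. MYCTH_2313641 had the largest, 46.8, with 836 CPM in the library labelled deletion, against 16.1 and 19.4 CPM in WT. It ranked 213 by CPM in the library labelled deletion, and 5545 and 5240 in WT. MYCTH_69953 joined a high ratio to a high level, with 2092 CPM in the library labelled deletion, against 54.5 and 50.9 CPM in WT, a ratio of 39.6. Per length it ranked 27 in the library labelled deletion, with 2885 FPKM, against 76.8 and 70.3 FPKM in WT.

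MYCTH_37947 had 914 CPM in the library labelled deletion, against 36.9 and 31.4 CPM in WT. MYCTH_2312287 had 501 CPM in the library labelled deletion, against 21.1 and 20.1 CPM in WT. MYCTH_2107104 had 318 CPM in the library labelled deletion, against 9.30 and 8.68 CPM in WT. These loci were well counted in every library, with at least 175 counts in each. MYCTH_2299852 had 239 CPM in the library labelled deletion, against 9.39 and 9.97 CPM in WT. Its span overlaps that of an adjacent gene, and because the strand setting of the counting is not given in the sources used here, reads of the overlap cannot be assigned to it with certainty.

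For 3 of the 12 largest ratios the WT libraries held fewer than 10 counts each, and the size of the ratio is poorly set. MYCTH_2118002 had 260 counts in the library labelled deletion, against 4 and 4 counts in WT, which gave 12.5 CPM in the library labelled deletion, against 0.183 and 0.198 CPM in WT. Its ratio without an added value was 68.3 to WT replicate 1 (exact 95% interval 26.4 to 253) and 63.1 to WT replicate 2 (24.4 to 233). MYCTH_2308101 had 196 counts in the library labelled deletion, against 5 and 4 counts in WT, and ratios of 41.2 (17.4 to 128) and 47.6 (18.3 to 176). MYCTH_45943 had 191 counts in the library labelled deletion, against 8 and 3 counts in WT, and ratios of 25.1 (12.5 to 58.9) and 61.8 (20.8 to 302). These intervals cover counting error only.

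**Figure D3:**
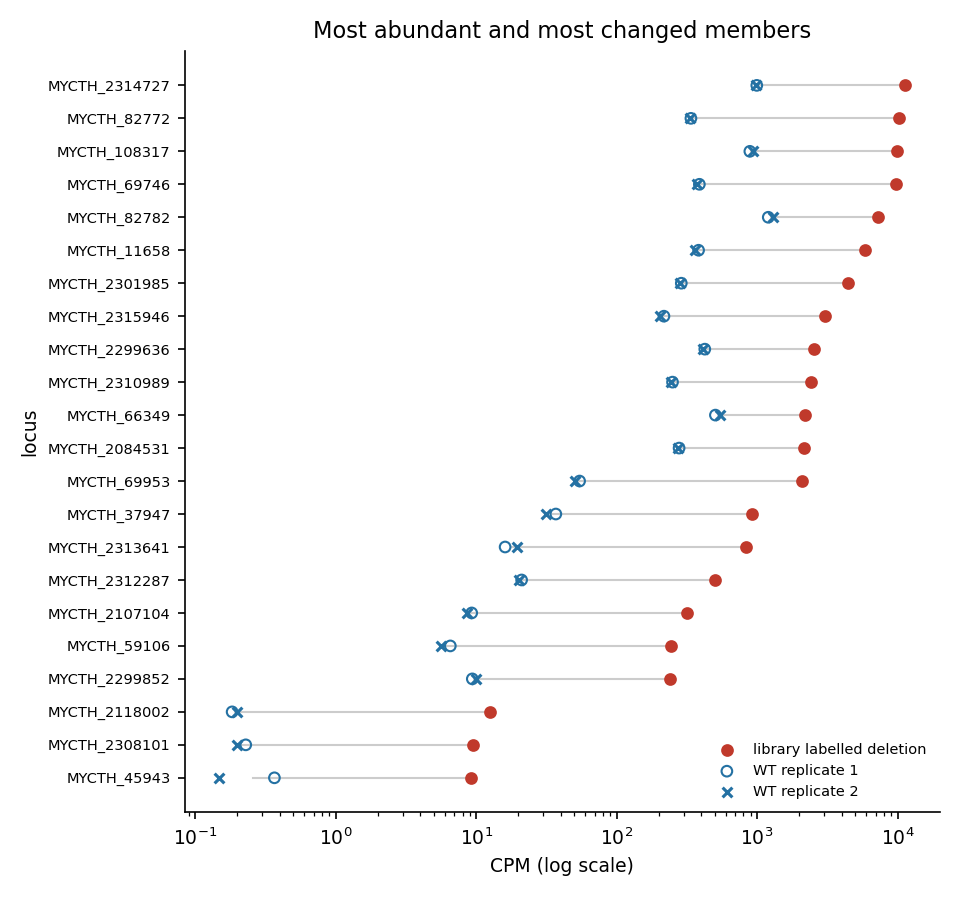
Level (x axis, CPM, log scale) of the loci that are among the 12 most abundant members or the 12 with the largest ratio (y axis), in the library labelled deletion (filled red), WT replicate 1 (open blue) and WT replicate 2 (blue cross); the grey line joins the WT mean to the library labelled deletion. The WT marks of most loci overlie each other; those of MYCTH_45943, at 0.367 and 0.149 CPM, lie farthest apart.

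The WT pair varied by about as much in the members as in other genes. Among the 89 members with a WT mean of 1 CPM or more, the median size of the log2 ratio of WT replicate 1 to replicate 2 was 0.09, and over all 7886 such genes it was 0.09. The WT pair differed most in MYCTH_2070001, with 116 counts in the library labelled deletion, against 25 and 8 counts in WT. The spread of mutant cultures is not known from 1 library.

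Nearest to the threshold, MYCTH_2308003 was just inside, with 796 CPM in the library labelled deletion, against 198 and 199 CPM in WT, and a smaller ratio of 4.00. MYCTH_2305976, MYCTH_66349 and MYCTH_2301048 followed, with smaller ratios between 4.00 and 4.02. Just outside lay MYCTH_2305028 and MYCTH_2300786, both with a smaller ratio of 3.92, then MYCTH_2313731 with 3.90 and MYCTH_12812 with 3.88. MYCTH_2313731 was outside through 1 WT library, with 20.02 CPM in the library labelled deletion, against 2.79 and 5.06 CPM in WT. At 5 CPM or more, 53 genes had a smaller ratio of 3 to 4 and 205 one of 2 to 3. A further 15 genes reached both ratios of 4 below 5 CPM.

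Gene structure was read from the counted length behind the deposited FPKM. The members' counted length had a median of 1390 bases (quartiles 1132 and 1739), against 1727 bases (1209 and 2380) over the 7158 protein-coding genes at 5 CPM or more in a library. It ran from 417 bases in MYCTH_54823 to 6852 bases in MYCTH_108317. In 27 members, or 28.7%, the counted length equalled the span of the gene, as in a gene without introns, against 21.9% of the 7158 genes. No test was made of these differences.

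Position in the genome was not used by the rule. In the gene order of assembly ASM22609v1, 13 of the 94 members stood next to another member, in 4 runs of 5, 4, 2 and 2 genes. Of the 188 places next to a member, 18, or 9.57%, held a member, while members made up 1.01% of all genes. Taken at most 10 places apart in the gene order, 29 members formed 10 groups, and the other 65 had no other member that near. Most members therefore stood alone.

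The run of 5 went from MYCTH_82782 to MYCTH_82772 and carried the largest mass of mRNA. It took 4.30% of all counts in the library labelled deletion, against 0.320% and 0.331% in WT, and 46.0% of the counts of the members in the library labelled deletion, against 35.1% and 35.9% in WT. In gene order, MYCTH_82782 had 7234 CPM in the library labelled deletion, against 1201 and 1307 CPM in WT. MYCTH_11658 had 5865 CPM in the library labelled deletion, against 383 and 361 CPM in WT. MYCTH_108317, the longest member, had 9925 CPM in the library labelled deletion, against 888 and 935 CPM in WT. The 3 loci thus differed in ratio, at 5.77, 15.8 and 10.9.

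MYCTH_69746 had 9802 CPM in the library labelled deletion, against 388 and 372 CPM in WT. MYCTH_82772 had 10182 CPM in the library labelled deletion, against 338 and 333 CPM in WT. Their ratios, 25.8 and 30.3, were the highest of the run. Per length the order of the 5 loci was not the same in the genotypes. In the library labelled deletion MYCTH_82772 led with 10172 FPKM, before MYCTH_69746 with 6997 FPKM and MYCTH_82782 with 4953 FPKM. In WT MYCTH_82782 led with a mean of 868 FPKM, before MYCTH_82772 with 339 FPKM. MYCTH_108317 was lowest in both, with 1728 FPKM in the library labelled deletion and a mean of 160.5 FPKM in WT. The highest level per length within the run was 5.89 times the lowest in the library labelled deletion and 5.41 times the lowest in WT.

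The loci that flank this run differed far less. On one side MYCTH_2064854 had 262 CPM in the library labelled deletion, against 176 and 186 CPM in WT, and rose by 0.53 on the log2 scale (SE 0.07, adjusted p = 8.12e-08 in the edgeR quasi-likelihood test, threshold 0.05). The locus beyond it, MYCTH_2306185, had a log2 fold change of -0.23 and did not pass (adjusted p = 0.0638). On the other side MYCTH_108314 had 32.4 CPM in the library labelled deletion, against 14.2 and 14.2 CPM in WT, and rose by 1.18 on the log2 scale (SE 0.13, edgeR adjusted p = 1.31e-09). Both flanking loci were far below the run in level, and whether reads from the run were counted in them was not tested.

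The run of 4 went from MYCTH_54712 to MYCTH_2308103 and was far less abundant, with 4608 counts in all in the library labelled deletion, against 468 and 374 counts in WT. MYCTH_54712 had 26.4 CPM in the library labelled deletion, against 4.49 and 4.51 CPM in WT. MYCTH_2308099 had 92.7 CPM in the library labelled deletion, against 9.67 and 7.19 CPM in WT. MYCTH_2308103 had 93.3 CPM in the library labelled deletion, against 7.06 and 6.64 CPM in WT. The short locus between these last loci, MYCTH_2308101, is the one with 196 counts given above. Past the run, MYCTH_2119798 had no count in any library, MYCTH_2308106 rose (log2 fold change 1.08, SE 0.13, edgeR adjusted p = 1.26e-08), and the next locus, MYCTH_2111801, was again a member, with 22.8 CPM in the library labelled deletion, against 5.04 and 5.40 CPM in WT. Before the run, MYCTH_2066662 was at 4.91 CPM in the library labelled deletion and 4.73 ± 0.534 CPM in WT (SD, n = 2).

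The pairs were MYCTH_59106 with MYCTH_2299837 and MYCTH_2310981 with MYCTH_2070001. MYCTH_59106 had 246 CPM in the library labelled deletion, against 6.55 and 5.65 CPM in WT, a ratio of 39.6. MYCTH_2299837 had 292 CPM in the library labelled deletion, against 29.3 and 31.0 CPM in WT, a ratio of 9.66. Their CPM were close in the library labelled deletion and unlike in WT. Per length they differed in both, with 93.7 and 222 FPKM in the library labelled deletion and means of 2.36 and 23.2 FPKM in WT. MYCTH_2310981 had 26.7 CPM in the library labelled deletion, against 6.41 and 4.76 CPM in WT, and MYCTH_2070001 was at 5.58 CPM there, the lowest level of any member. None of the tested loci within 4 places of these pairs passed the test as higher.

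**Figure D4:**
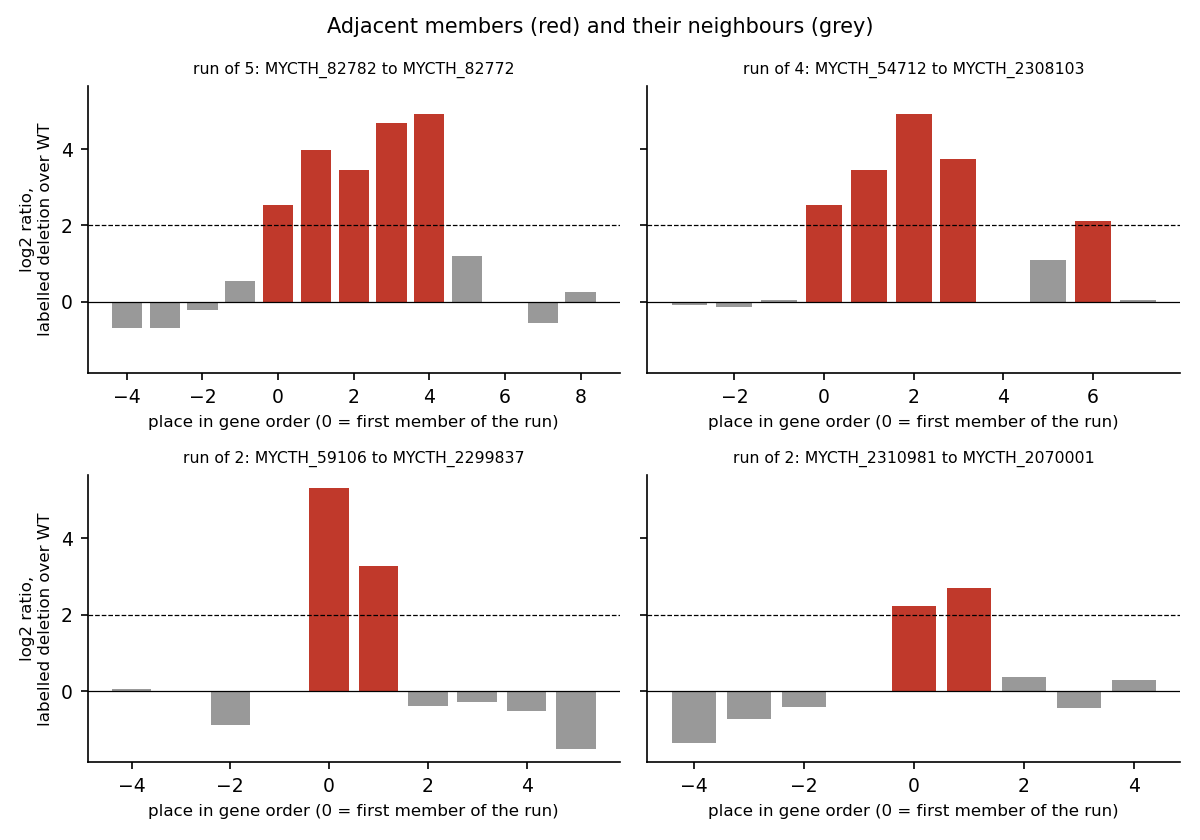
Log2 of the level in the library labelled deletion over the WT mean (y axis, 0.1 CPM added to each side) by place in gene order (x axis, 0 is the first member of the run) for the 4 runs of adjacent members, in red, and up to 4 loci on each side, in grey unless they are members; loci with at most 3 counts in every library are left blank and the dashed line marks a ratio of 4. The red bars of the run of 5 reach 2.53 to 4.92, and the grey bars beside it stay at or under 1.19.

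Loci next to a member but not members themselves were tested with the rest of the table, since the rule did not choose them. There were 169, of which 140 passed the filter on low counts. Of these, 47 rose and 27 fell in the library labelled deletion by the edgeR quasi-likelihood test, or 33.6% and 19.3%. Over all tested non-members 27.3% were called higher and 27.9% lower, and over all 8340 tested genes 28.1% and 27.6%. The excess of rises over falls was found next to members and not farther out. At 2 places from a member 25.5% of 145 rose and 26.2% fell, at 3 to 5 places 21.5% of 405 rose and 27.7% fell, and at 6 to 10 places 28.9% of 602 rose and 29.7% fell. Neighbouring loci are not independent, and no test of these shares was made. Whether reads from members were counted in the loci next to them was not tested.

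**Figure D5:**
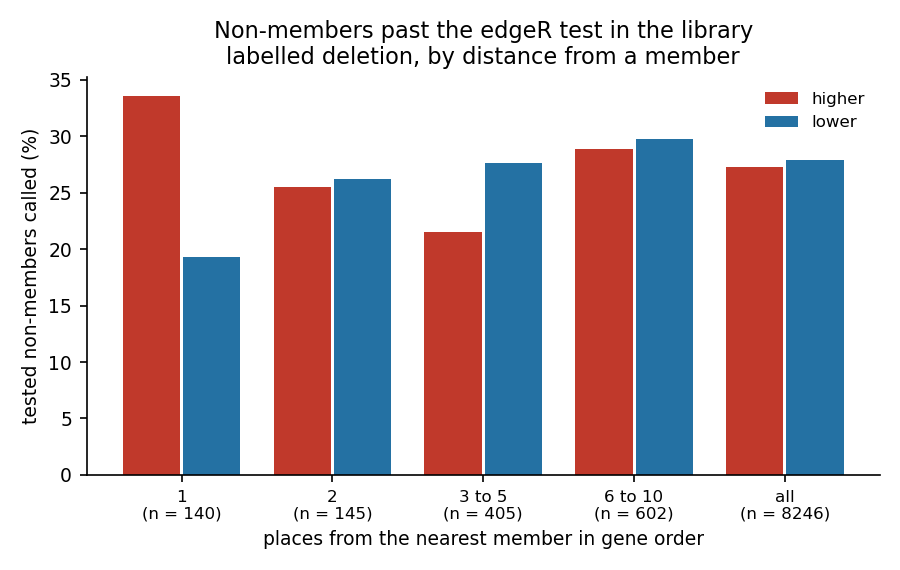
Share of tested non-members (%, y axis) that passed the edgeR test as higher (red) or lower (blue) in the library labelled deletion, by places from the nearest member in gene order (x axis, n is the number tested). Next to a member 33.6% rose and 19.3% fell, against 27.3% and 27.9% of all tested non-members.

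With a minimum of 2-fold added to the test, 18 of the 140 adjacent loci rose, or 12.9%, and 7 fell, or 5.0%, against 4.91% and 6.73% of all tested non-members. Of the 18, 4 reached both ratios of 4 and were not members because they stayed under 5 CPM. The largest of these was MYCTH_2119814, which lies between the members MYCTH_2308133 and MYCTH_2308135. It had 67 counts in the library labelled deletion, against 3 and 6 counts in WT, or 3.86 higher on the log2 scale (SE 0.59, edgeR adjusted p = 1.25e-06). MYCTH_2308138, on the other side of MYCTH_2308135, rose as well, with 41.7 CPM in the library labelled deletion, against 13.7 and 12.7 CPM in WT (log2 fold change 1.64, SE 0.12, edgeR adjusted p = 2.79e-13). All 4 adjacent loci were higher, but the rule required this of the members MYCTH_2308133 and MYCTH_2308135. The non-members among them were named after their values were seen. MYCTH_2308133 itself had 618 CPM in the library labelled deletion, against 63.0 and 68.1 CPM in WT, and MYCTH_2308135 had 420.4 CPM in that library, against 73.9 and 71.8 CPM in WT.

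Next to MYCTH_37947, MYCTH_2310626 rose with 100 counts in the library labelled deletion, against 12 and 10 counts in WT (log2 fold change 3.17, SE 0.43, edgeR adjusted p = 1.44e-07). Both loci beside MYCTH_54823 rose, MYCTH_2309559 by a log2 fold change of 1.21 and MYCTH_2309563 by 1.13 (edgeR adjusted p = 0.00116 and 3.31e-07). Of the 18 loci, 8 were at 10 CPM or more in the library labelled deletion, and the other 10 were below that level. For these 18 too, whether reads from the adjacent members were counted in them was not tested.

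Other members had neighbours that went the opposite way. MYCTH_2107104, at a ratio of 35.0, lies beside ganA (MYCTH_43163), a galactanase gene, which fell to 10.1 CPM in the library labelled deletion, against 24.6 and 23.8 CPM in WT (log2 fold change -1.27, SE 0.15, edgeR adjusted p = 6.91e-09). MYCTH_2296873, on its other side, rose by 1.04 on the log2 scale (SE 0.13, edgeR adjusted p = 1.97e-08). MYCTH_2308118, beside the member MYCTH_2308119, fell to 54.8 CPM in the library labelled deletion, against 134 and 136 CPM in WT (log2 fold change -1.31, SE 0.08, edgeR adjusted p = 3.60e-15). MYCTH_109821, beside MYCTH_2069839, fell to 171 CPM in the library labelled deletion, against 421 and 401 CPM in WT (log2 fold change -1.27, SE 0.07, edgeR adjusted p = 8.99e-16). Adjacent loci thus did not share 1 direction.

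The edgeR calls rest on 1 library labelled deletion, and their spread comes from the WT pair alone, with 1 residual degree of freedom per gene. The fit added 30 prior degrees of freedom (median) from the other genes. The adjusted p-values thus rest mostly on a spread shared over genes. Of the 94 members, 8 have a span that overlaps an adjacent gene, or 8.51%, against 5.07% of all genes, and their counts may include reads of that gene; besides MYCTH_2299852 these include MYCTH_66349.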

How the data were processed

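The authors deposited 1 table of raw read counts and FPKM per gene for 3 libraries, per the file headers. The submitters' processing notes name TopHat2 2.0.8b and HTSeq 0.5.4p2; the strand setting, like the build and other settings, is not given in the sources used here. Counts over FPKM were scaled so that the largest lengths matched the span in assembly ASM22609v1. The lengths were then whole within 0.01 bases for 8847 of 8847 genes, and equal to the span for 2214. The authors' FPKM thus hold no change beyond the counts, a length per gene and a library total. That total came to 82.0 to 83.8% of the counts. All 9292 locus tags matched that assembly. It was used only for symbols, gene type and, from its coordinates, gene order, span and overlap of adjacent spans.

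Members were found from CPM of column sums, and all 94 passed the test's filter. The whole table was fitted with edgeR 4.0.16 under R 4.3.3 (filterByExpr, 8340 genes; TMM; glmQLFit, glmQLFTest; Benjamini-Hochberg adjusted p under 0.05; SE from the square root of F), for the loci next to members. On simulated counts (8277 genes, 200 of them changed, at 10 CPM or more), this comparison found 100 of 100 at a log2 change of 1 and 100 of 100 at 2, and 1.96% of its calls were unchanged genes. The simulation gave all 3 libraries the common spread estimated from the WT pair and changed far fewer genes than the real test called. It therefore gives no error rate for the real calls, and no recovery for changed loci under 10 CPM.

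Members, lists and tests were chosen with earlier results of these data known. Named by rule were MYCTH_90344, the 12 members highest in CPM and in ratio, runs of 3 or more, the member highest in WT and 4 loci on each side of the threshold; neighbours, pairs and other loci were named after their values were seen. Protein and promoter sequences were not used here. DESeq2 1.42.0, other scalings, filters and minimums and leaving out a WT library were the alternatives.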

Additional observations from a re-analysis of the deposited data

How the results depend on the processing

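The number of members, 94, lay between 74 and 106 under other scalings, added values, minimum levels and the deposited FPKM. It was 147 at a minimum ratio of 3 and 38 at a minimum ratio of 8. TMM scaling gave 90, all among the 94. Leaving out a WT library gave 99 to 108. The log2 ratio of the summed level, 3.35, was 3.34 to 3.36 without a WT library and 3.09 without the run of 5 (chosen after seeing the data). Members next to another member numbered 13 to 15. Adjacent non-members that rose numbered 47 in the main test, 30 with the DESeq2 Wald test, 19 with glmTreat at a minimum fold of 1.5, 84 with 2 neighbours on each side and, chosen after seeing the data, 18 with a 2-fold minimum. Those that fell numbered 27, and 20, 7, 65 and 7 in these alternatives in the same order. Fewer loci by glmTreat and the 2-fold minimum, and more with 2 neighbours, follow from their construction; for DESeq2 the cause was not tested. In each of these the rises exceeded the falls, by the smallest margins of share with 2 neighbours on each side and with DESeq2. With 2 neighbours on each side, 29.5% of 285 rose and 22.8% fell, against 27.3% and 27.9% of all tested non-members. The share that rose was there close to that of all tested non-members. With DESeq2 the shares were 21.4% and 14.3% of 140, against 16.5% and 20.1% of all non-members it tested. No edgeR value exists without a WT library, since no residual degree of freedom remains. None of the 28 named members changed direction, but the rule's 4-fold minimum over both WT libraries left almost no room for that. Adding 1 CPM moved 11 of them, most of all MYCTH_2118002, to a log2 ratio of 3.50. Depth limited loci near 3 counts. Homologs of the members were not analysed here. No paired analysis was possible because the labelled deletion mutant had 1 library.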
